A study of Mus musculus with 30 samples.

Results

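The hypothalamus of mice fasted for 72 h was compared with that of fed mice, gene by gene, by RNA sequencing of total RNA. The comparison rests on 3 fed and 3 fasted libraries, 6 of the 30 samples in the series, and the change is always 72 h minus fed. All animals were wild-type C57BL/6 (B6) mice, and the labels do not say that each library came from a separate animal, so the p-values measure the spread between these samples, which may be technical. Of 52286 genes counted, 20408 passed the filter on low counts and were tested. Levels in 3 libraries from mice fasted for 24 h and 3 from mice fasted for 72 h in the cold (18 C), which were counted in the same table, are given where they place a 72 h value.

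The hypothalamus is the part of the brain that reads the body's energy stores and sets hunger, body temperature and the release of pituitary hormones. In its arcuate nucleus neurons that make the peptides Agrp and Npy drive feeding, while neighbouring neurons that make Pomc and Cartpt peptides restrain it, and leptin, ghrelin and insulin act on both. A long fast also raises circulating glucocorticoids, lowers thyroid hormone and turns the liver to ketone production.

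At 72 h 1485 genes were higher (7.28% of those tested) and 1587 were lower (7.78%) than in fed libraries, by edgeR's quasi-likelihood test at an adjusted p below 0.05. A gene past this threshold is called here. In either direction 15.1% of genes were called, and 4.46% were called by more than 2-fold. Genes called higher were the less abundant ones. Their median level was 9.5 CPM (counts per 1e6 counts of the library), against 34.6 CPM for genes called lower and 11 CPM for all genes tested. Their median log2 fold change was 0.83, that of genes called lower was -0.58, and that of all genes was 0.01. Calls that held in each of the 6 fits that left out 1 fed or 72 h library are called stable below. There were 328 (1.61%), of which 151 were higher (0.74%) and 177 were lower (0.867%). Without fed library 1 or 2 the 3072 calls became 830 and 456, without fed library 3 they became 5446, and without 72 h libraries 1 to 3 they became 1056, 712 and 434. A fit with 1 surrogate variable, an estimated hidden factor, called 5 genes, all lower, among them the vessel genes Myh11 and Ptprb described below.

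**Figure D1:**
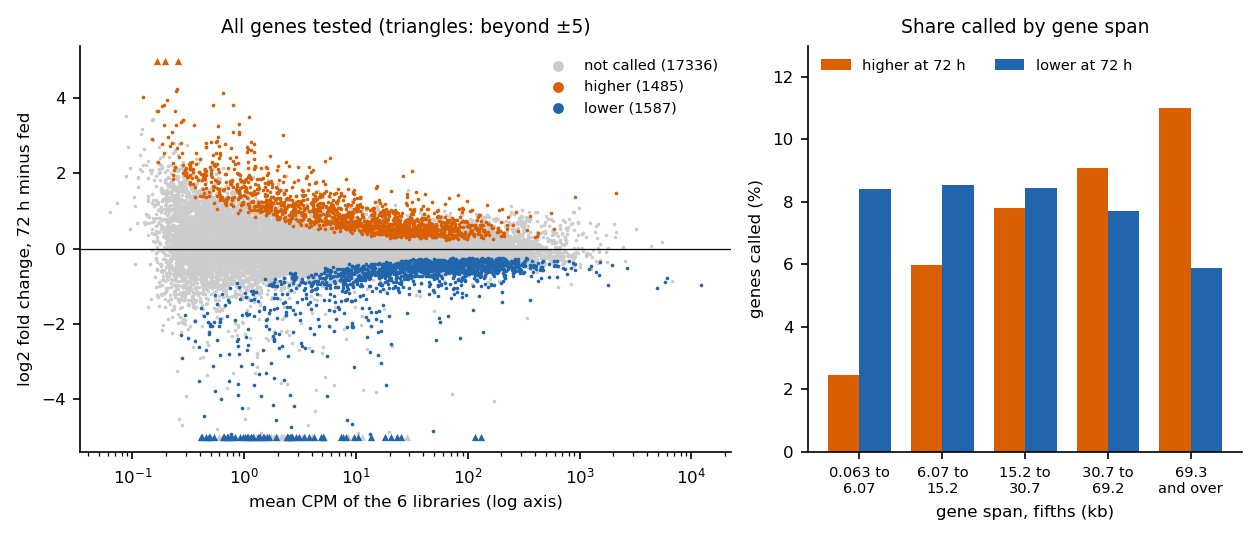
Left, log2 fold change (72 h minus fed) of each of the 20408 genes tested against its mean CPM over the 6 libraries on a log axis, with genes called higher in orange and lower in blue and genes beyond the axis drawn as triangles. Right, share of genes called in each quintile of gene span: the share called higher runs from 2.46% in the shortest to 11% in the longest quintile.

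Total counts were between 27111216 and 36160453 in fed and between 31512969 and 43397395 in 72 h libraries. The 12 markers that define hypothalamic cells, such as the transcription factor genes Sim1 and Otp and the peptide genes Hcrt, Pmch, Avp and Oxt, summed to 237, 305 and 213 CPM in fed libraries 1 to 3 and to 253, 313 and 225 CPM in 72 h libraries 1 to 3. They were present in all 6 libraries at overlapping levels. By edgeR none of the 12 was called, although 1 passed an unadjusted p of 0.05, and 1 was called by DESeq2. Neighbouring and outside tissue differed more. Markers of striatal projection neurons summed to 963, 1380 and 756 CPM in fed and to 595, 504 and 541 CPM in 72 h libraries. Of these 8 of 12 were called lower, against 7.78% of all genes. Choroid plexus markers summed to 368, 440 and 632 CPM against 259, 272 and 251 CPM, with 7 of 12 lower (against the same 7.78%). Blood cell markers summed to between 63.4 and 84.2 CPM against 45.7 to 52.8 CPM, with 6 of 8 lower (against the same 7.78%). Fed library 2 stood apart by liver markers (1161 CPM, against 18.6 and 346 in fed libraries 1 and 3 and at most 9.37 at 72 h) and by skeletal muscle markers (1555 CPM, against at most 35.1 in the other 5 libraries). Fed library 3 differed from fed libraries 1 and 2 in counts per gene by a chi-square per degree of freedom of 73.6 and 106, against 21.5 between those 2 and 15.8 to 17.6 between 72 h libraries.

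Many genes that neurons switch on within minutes of firing were lower at 72 h. Of 36 immediate early and activity genes tested, 21 (58.3%, against 7.78% of all genes) were called lower and the other 15 were not called, with a median log2 fold change of -0.73. Among the 21 calls 11 were stable. The count was 13, 14 and 23 without fed libraries 1 to 3 and 17, 14 and 11 without 72 h libraries 1 to 3. In bulk tissue fewer cells of a type and less RNA per cell cannot be told apart.

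Many such genes carry the binding site of the transcription factor CREB, TGACG, the core of the cAMP response element, close upstream of their start. The 150 bases before the RefSeq start (GRCm38.p6) of Fos (chr12:85473740-85473889, + strand) and Homer1 (chr13:93303607-93303756, + strand) are shown. Both were picked among called activity genes that hold the core there, and are among the activity genes with the smallest adjusted p. Capitals mark each core on either strand, which also lies inside the full element TGACGTCA where that is present.
Fos: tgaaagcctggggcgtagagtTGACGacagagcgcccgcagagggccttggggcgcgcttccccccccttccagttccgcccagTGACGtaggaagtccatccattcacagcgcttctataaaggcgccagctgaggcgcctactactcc
Homer1: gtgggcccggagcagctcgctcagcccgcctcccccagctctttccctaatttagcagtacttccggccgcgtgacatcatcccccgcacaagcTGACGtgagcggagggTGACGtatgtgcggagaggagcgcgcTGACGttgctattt
Fos had 2 cores in this stretch and Homer1 had 3. In windows of 300 bases, from 250 before to 50 after the start, the core was found in 12 of the 17 called activity genes with a window (70.6%), in 7 of 11 that were not called (63.6%) and in 27.7% of the 13861 tested genes with a window. The site was thus common in the list whether or not a gene was called.

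Fos, a transcription factor gene widely used as a mark of recent firing (ENSMUSG00000021250, GRCm38 chromosome 12, 85473890 to 85477273, + strand), stood at 17.6, 9.42 and 13 CPM in fed libraries 1 to 3 and at 3.3, 2.4 and 3.68 CPM in 72 h libraries 1 to 3. Every fasted library lay below every fed one, and the level was 4.24-fold lower (log2 fold change -2.08 ± 0.28 (SE), edgeR adjusted p = 0.005). Egr3, a zinc finger factor induced after Fos (chromosome 14, 70077203 to 70082614), had 32.1, 31.6 and 26.4 CPM in fed libraries against 5.23, 2.25 and 3.43 CPM at 72 h. The groups were far apart, and the fall was 8.23-fold (-3.04 ± 0.44, edgeR adjusted p = 0.00657). The related factors Egr4 and Egr1 fell 5.69-fold and 3.9-fold. Arc, which moves receptors at active synapses (chromosome 15, 74669083 to 74672570), had 35.2, 28.2 and 28.6 CPM against 9.23, 9.66 and 7.86 CPM (-1.78 ± 0.21, edgeR adjusted p = 0.005). Junb and Fosl2, partners of Fos in the AP-1 factor, fell 3.02-fold and 2.81-fold, with 19.7, 16.4 and 15 CPM against 6.55, 5.68 and 4.73 CPM for Junb. Homer1, a scaffold of the postsynaptic density, is far more abundant, with 138, 148 and 157 CPM in fed and 79, 68.1 and 75.9 CPM in 72 h libraries, and fell 1.98-fold (-0.99 ± 0.14, edgeR adjusted p = 0.005). All 8 genes named here had stable calls. The naming rule given below required stable calls and no overlap between fed and 72 h libraries of Fos, Egr1, Egr3, Egr4 and Homer1. Of all 3072 called genes 3002 had no such overlap.

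At 24 h libraries 1 and 3 were close to each other and library 2 stood apart. The chi-square per degree of freedom was 3.51 between libraries 1 and 3, and 95.9 and 79.1 between library 2 and each of them. No other pair of libraries within a group was below 15.8. Fos stood at 10.2, 17.9 and 10.6 CPM, Egr3 at 16.9, 43.5 and 21.9 CPM and Arc at 20, 37.6 and 21.6 CPM in 24 h libraries 1 to 3, with library 2 above every fed library in each. Libraries 1 and 3 were within the fed range for Fos and below it for Egr3 and Arc. Between 24 h and 72 h 217 genes (1.06%) were called lower and 116 (0.568%) higher, and 15 of the 36 activity genes were among those called lower. The 217 and 116 together were 333 (1.63%), and became 328, 71 and 120 without 24 h libraries 1 to 3 and 77 and 1 without 72 h libraries 1 and 2. Without 72 h library 3 edgeR called none. In the cold 72 h group Fos was at 7.73, 5.74 and 7.24 CPM, above its range at 72 h alone and below its range in fed libraries, while Arc was at 8.43, 7.58 and 9.59 CPM. Between the 72 h groups no gene was called by edgeR (0%), while 1296 genes passed an unadjusted p of 0.05, and 57 were called by DESeq2.

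**Figure D2:**
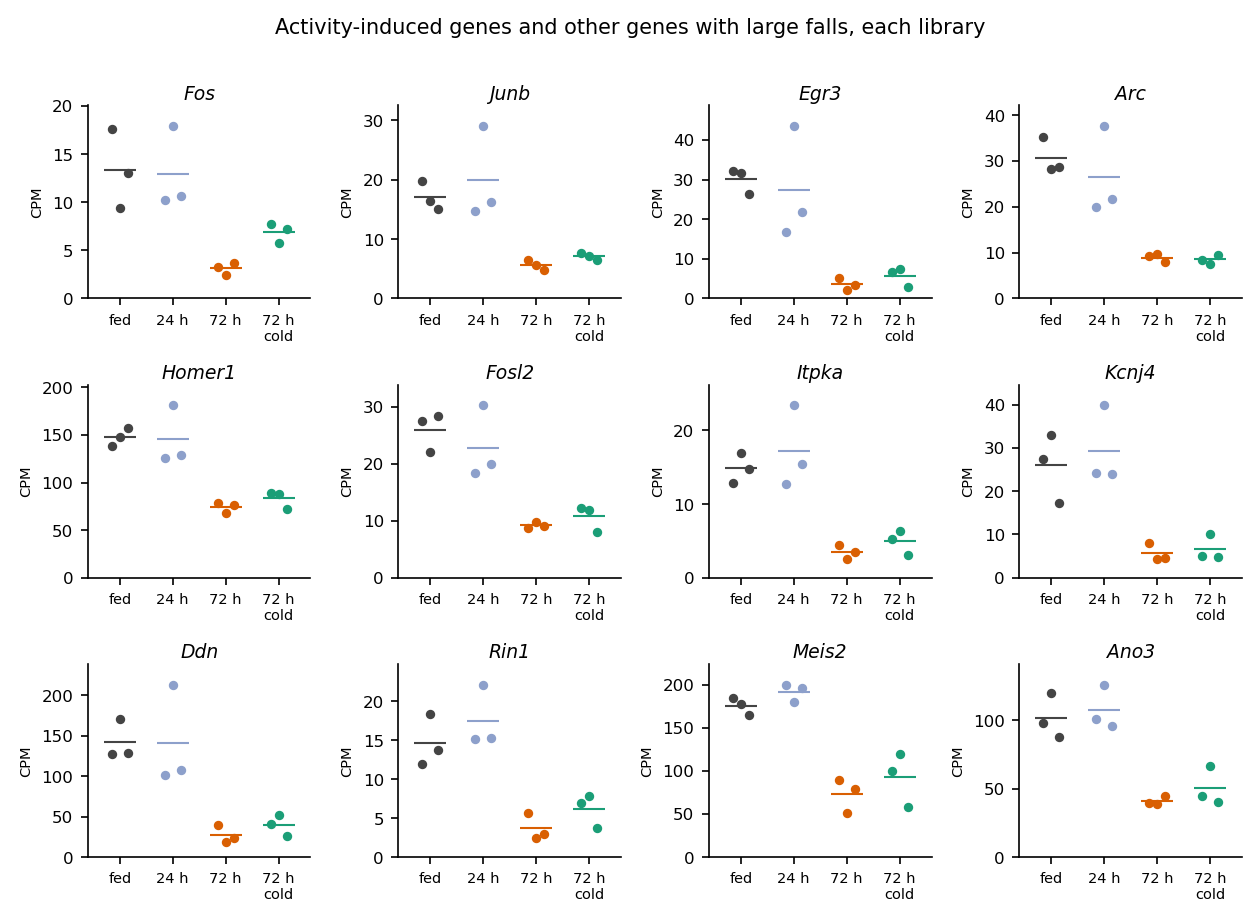
CPM of 12 genes in each library of the fed, 24 h, 72 h and 72 h cold groups, with a bar at the group mean (n = 3). In all 12 panels the 3 libraries at 72 h lie below the 3 fed libraries. The naming rule required such separation of all but Junb, Arc, Fosl2 and Meis2, and 3002 of all 3072 called genes show it.

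The other large falls that the naming rule picked were in genes of several kinds, which no list groups. Itpka, a kinase of inositol trisphosphate found in dendritic spines (chromosome 2, 119742337 to 119751263), had 12.8, 17 and 14.7 CPM in fed and 4.47, 2.58 and 3.45 CPM in 72 h libraries (4.23-fold lower, -2.08 ± 0.29, edgeR adjusted p = 0.005). Ddn, which encodes the postsynaptic protein dendrin and shares 43.2% of its span with other genes, had 127, 170 and 129 CPM against 39.4, 19.1 and 23.3 CPM (-2.38 ± 0.36, edgeR adjusted p = 0.00792). Kcnj4, an inward rectifier potassium channel gene, had 27.5, 33 and 17.3 CPM against 8.07, 4.25 and 4.48 CPM (-2.21 ± 0.37). Kcnv1, which encodes a silent subunit that tunes other potassium channels, fell 4.14-fold, and Rin1, a Ras effector, fell 3.97-fold. Lrrc10b, Ankrd33b and Epyc fell 4.58-fold, 4.57-fold and 4.16-fold. Krt9, a keratin gene of thick skin that was low here (2.39, 4.4 and 3.42 CPM in fed libraries), fell 4.81-fold. Their calls were stable, which the naming rule required. In 24 h library 2 each of these 9 genes was above its highest fed library, as with the activity genes.

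More abundant genes moved the same way by less. Ano3, an anoctamin gene, went from 98, 120 and 87.4 CPM to 39.3, 38.6 and 44.9 CPM (-1.31 ± 0.18, edgeR adjusted p = 0.005). Meis2, a homeobox factor of the lateral ganglionic eminence and its descendants, went from 184, 178 and 165 CPM to 89.8, 51.3 and 79.3 CPM (-1.26 ± 0.24, edgeR adjusted p = 0.0113). Gucy1b1, the beta subunit of the nitric oxide receptor guanylate cyclase, fell 1.78-fold, Lrrk2, a kinase gene of familial Parkinson disease, fell 1.82-fold, and Jcad, a gene of endothelial junctions, fell 2.28-fold. Summed striatal markers moved with these falls: they were 963, 1380 and 756 CPM in fed, between 1196 and 1403 CPM in 24 h and between 504 and 595 CPM in 72 h libraries. Of the thalamic and cortical neuron markers 5 of 13 were called lower (against 7.78% of all genes) and 1 higher (against 7.28%). They summed to 1580, 1218 and 1603 CPM in fed and to 2025, 1176 and 1866 CPM in 72 h libraries, so that these groups overlapped. The part of tissue make-up in the falls of these genes and of the activity genes was not tested.

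The largest rises were in genes of low abundance, several of them known from germ cells or sense organs. Atp1a4, the sodium pump subunit of sperm (chromosome 1, 172223513 to 172258414), had 0.379, 0.136 and 0.911 CPM in fed and 5.36, 2.83 and 3.75 CPM in 72 h libraries, an 8.08-fold rise (3.02 ± 0.56, edgeR adjusted p = 0.0108). Acr, the sperm protease acrosin, rose 4.07-fold from 1.48, 0.712 and 2.45 CPM to 6.71, 6.53 and 5.86 CPM. Tdrd5, needed for sperm development, Slc26a8, an anion transporter of sperm, Ovgp1, an oviduct glycoprotein gene that is 79.4% overlapped by other genes, Syne4, a nesprin of hair cells, and Vmn2r1, a vomeronasal receptor gene, rose between 2.59-fold and 4.48-fold. Vmn2r1 had 6.85, 6.65 and 6.75 CPM at 72 h against 3.19, 2.54 and 2.11 CPM in fed libraries. Potegl, Wdr95 and Cyp4f18 rose 3.44-fold, 2.96-fold and 3.65-fold. All of these calls were stable, which the rule for naming the largest changes required.

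For some of the largest rises the 24 h libraries were about as high as the 72 h libraries or higher. These were Itgad and Gabrr2, and Cdkn1a and Pla2g3, which are described with the glucocorticoid genes. Itgad, an integrin alpha chain of leukocytes (chromosome 7, 128154376 to 128223816, 28.3% overlapped), had 2.01, 1.56 and 1.96 CPM in fed, 10.5, 8.53 and 11.3 CPM in 24 h and 10.5, 7.54 and 11.4 CPM in 72 h libraries (72 h minus fed 2.41 ± 0.34, edgeR adjusted p = 0.00513). Gabrr2, a rho subunit of GABA receptors (chromosome 4, 33062999 to 33095865), had 3.91, 2.13 and 4.5 CPM in fed, 15, 7.57 and 12.8 CPM in 24 h and 11.7, 10.7 and 15.7 CPM in 72 h libraries (1.85 ± 0.32, edgeR adjusted p = 0.00924). The log2 difference between 72 h and 24 h was -0.04 ± 0.30 for Itgad and 0.11 ± 0.30 for Gabrr2. Coro6, an actin-binding coronin, had 23.7, 11.4 and 21.1 CPM at 24 h, with library 2 in the fed range, and rose 2.88-fold by 72 h.

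Among ion channel genes single members moved in either direction. Kcnt1, a sodium-activated potassium channel gene, went from 57.5, 51.8 and 69.3 CPM to 112, 118 and 119 CPM (0.97 ± 0.14, edgeR adjusted p = 0.00565), and Grin2d, an NMDA receptor subunit gene, from 22.6, 20.1 and 23.3 CPM to 38.1, 37 and 39.5 CPM (0.79 ± 0.13, edgeR adjusted p = 0.00832). Kcna4, a fast inactivating potassium channel gene, fell from 59.4, 58.6 and 48.1 CPM to 34.8, 28 and 36.7 CPM. Of 24 glutamate receptor genes 3 were higher (12.5%, against 7.28% of all genes), and of 35 potassium channel genes 2 were higher (5.71%) and 3 lower (8.57%), the latter shares near those of all genes. Without fed library 3 the counts of higher genes became 9 and 10, and stable calls were 1 in the first list and 1 in each direction in the second. Kcnj4 and Kcnv1, described above among the large falls, are not members of the potassium channel list. Its share of lower genes therefore leaves them out. Map4k2, a kinase gene, rose 1.55-fold, with 47.1, 43.1 and 46.4 CPM against 65.1, 72.7 and 73.6 CPM (0.63 ± 0.09, edgeR adjusted p = 0.005).

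Of 25 genes that glucocorticoids induce, 6 were higher at 72 h (24%, against 7.28% of all genes), 5 of them with stable calls, 1 was lower and 18 were not called. The median was -0.01, with 13 genes below and 12 above 0. Against 24 h 2 of the 25 were called lower at 72 h, a call made for 1.06% of all genes. The count of higher genes was 5 or 6 without any 1 library. Arrdc2, an arrestin-domain gene, had 10.7, 7.93 and 8.28 CPM in fed, 25.7, 23.5 and 26.6 CPM in 24 h and 18.8, 17.8 and 19.1 CPM in 72 h libraries (72 h minus fed 1.05 ± 0.15, edgeR adjusted p = 0.005). Fkbp5, which curbs the glucocorticoid receptor, had 36.8, 37.1 and 35.3 CPM, then 75.9, 67.4 and 74.2 CPM, then 57.2, 48.9 and 49.3 CPM. In both genes the 72 h libraries lay above all fed and below all 24 h libraries. Cdkn1a, the cell cycle inhibitor p21, had 8.72, 6.68 and 7.17 CPM in fed, 28.5, 34.9 and 27.9 CPM in 24 h and 29.5, 18.7 and 20.7 CPM in 72 h libraries. Pla2g3, a phospholipase gene that is 45% overlapped, had 2.16, 1.66 and 1.34 CPM, then 6.88, 5.39 and 6.07 CPM, then 4.68, 4.53 and 5.66 CPM. Hif3a, a modulator of the hypoxia response, rose 1.79-fold. In the cold group all 5 were above or within their 72 h range, with Cdkn1a at 66.8, 32.3 and 75.1 CPM. Plin4, a coat protein gene of lipid droplets, had 25.6, 39.1 and 21.1 CPM against 57.1, 54 and 92.2 CPM (1.25 ± 0.29, edgeR adjusted p = 0.0229), a call lost without fed library 1 (edgeR adjusted p = 0.0652) or 72 h library 3 (0.0882). Sgk1, a kinase gene of the same list, was at 154, 76.8 and 127 CPM in fed and at 133, 128 and 134 CPM in 72 h libraries and was not called.

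**Figure D3:**
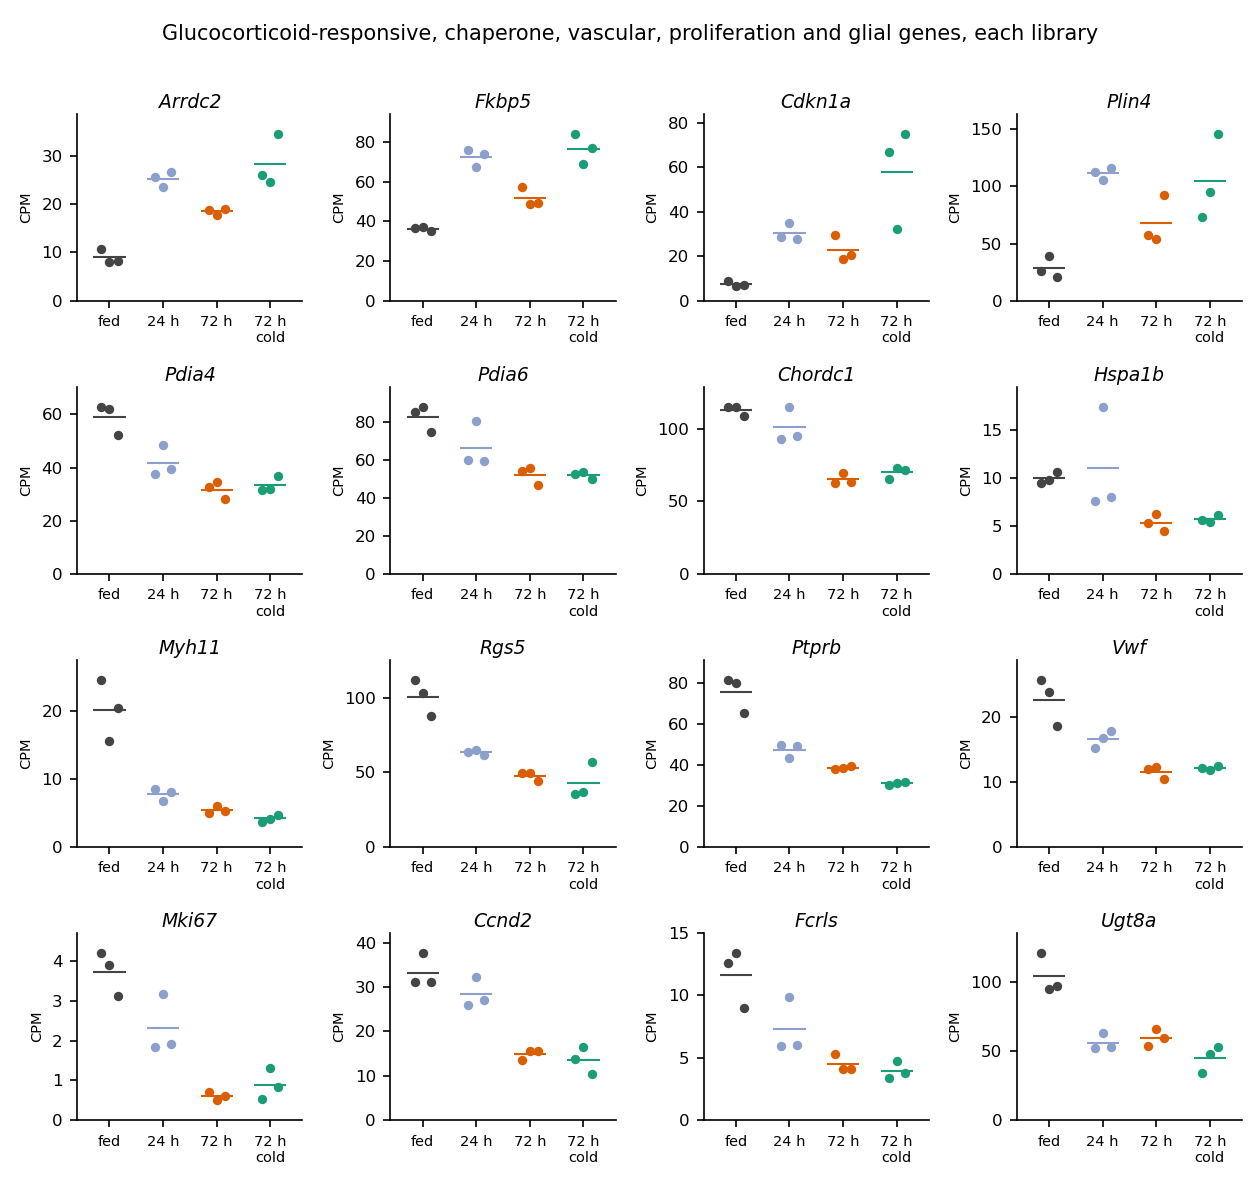
CPM of 16 genes in each library of the fed, 24 h, 72 h and 72 h cold groups, with a bar at the group mean (n = 3). Arrdc2 and Fkbp5 at 72 h lie between the fed and 24 h libraries, whereas Pdia4, Myh11, Rgs5 and Ptprb are lowest in the 72 h and cold groups.

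None of the peptide genes that drive or restrain feeding from the arcuate nucleus passed the test. Agrp (ENSMUSG00000005705, chromosome 8, 105566698 to 105637393, 59.9% overlapped) had 4.82, 5.08 and 4.78 CPM in fed and 4.63, 5.89 and 5.64 CPM in 72 h libraries (0.14 ± 0.15, edgeR adjusted p = 0.519). Npy (ENSMUSG00000029819, chromosome 6, 49822710 to 49829507) had 15.4, 21.7 and 13.1 CPM against 16, 14.7 and 13.4 CPM (-0.19 ± 0.25, edgeR adjusted p = 0.622). Pomc (ENSMUSG00000020660, chromosome 12, 3954951 to 3960642) had 5.69, 6.98 and 5.67 CPM against 3.36, 5.59 and 3.73 CPM (-0.54 ± 0.27, edgeR adjusted p = 0.18), and Cartpt (ENSMUSG00000021647, chromosome 13, 99898489 to 99901091) had 30.3, 21.9 and 16 CPM against 13.6, 28.5 and 24.4 CPM (-0.03 ± 0.36, edgeR adjusted p = 0.953). The groups overlapped in Agrp, Npy and Cartpt, while the 3 fasted libraries of Pomc lay just below the fed ones. DESeq2 did not call these 4 genes either, and none had an unadjusted p below 0.05. How reads in overlapped stretches were counted is not given, and whether counts of Agrp include reads from the genes it overlaps was not tested.

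Among 26 other feeding and arousal peptides 1 was higher (3.85%, against 7.28% of all genes) and 3 were lower (11.5%, against 7.78% of all genes), shares near the background. Ghrl, the ghrelin gene, which is 18.6% overlapped, had 5.2, 4.95 and 6.01 CPM in fed and 7.47, 8.75 and 9.41 CPM in 72 h libraries (0.67 ± 0.17, edgeR adjusted p = 0.0283). Penk, the enkephalin gene, had 161, 252 and 96.1 CPM against 69, 46.9 and 47.1 CPM (-1.64 ± 0.35, edgeR adjusted p = 0.0183). Tac1, the substance P gene, had 48.8, 68.7 and 32.4 CPM against 24.2, 25.4 and 19.3 CPM, and Pdyn, the dynorphin gene, had 26.7, 40.9 and 20.7 CPM against 17.6, 15.2 and 11.8 CPM. In all 3 falling genes fed library 2 was highest and fed library 3 lowest, the order of the striatal marker sums, of which Penk and Tac1 are themselves members. These 4 calls were lost without fed library 2, 72 h library 2 or 72 h library 3, with edgeR adjusted p between 0.0507 and 0.127, so that none of the 4 was stable. The 11 neuroendocrine peptide genes were not called by edgeR, although 3 passed an unadjusted p of 0.05 and 1 was called by DESeq2. Among the 11, Sst, the somatostatin gene, had 61.9, 76.9 and 61.5 CPM against 44, 44.6 and 43.7 CPM (-0.60 ± 0.20, edgeR adjusted p = 0.0592).

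Of 31 receptors of feeding signals 6 were lower (19.4%, against 7.78% of all genes), the other 25 were not called, and the median was 0.02. Mchr1, the receptor of melanin-concentrating hormone (chromosome 15, 81235499 to 81238964), had 12.5, 15.1 and 8.63 CPM against 6.9, 5.65 and 6.43 CPM. The receptors of neuropeptide Y were at 19.4, 20.6 and 15.4 CPM against 12.2, 10.1 and 13.9 CPM for Npy1r, at 19.4, 22.6 and 24.4 CPM against 13.1, 14.5 and 13.7 CPM for Npy2r, and at 5.61, 5.42 and 4.95 CPM against 3.06, 3.49 and 3.43 CPM for Npy5r. Oprm1, the mu opioid receptor gene (55.7% overlapped), and Adipor1, an adiponectin receptor gene, had log2 fold changes of -0.46 and -0.41. The groups did not overlap in any of these 6 genes, as in 3002 of all 3072 called genes, and no call was stable. Without fed library 2, 72 h library 2 or 72 h library 3 all 6 calls were lost, without fed library 1 or 72 h library 1 a single call was left, and the highest adjusted p was 0.153, for Adipor1 without fed library 2.

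**Figure D4:**
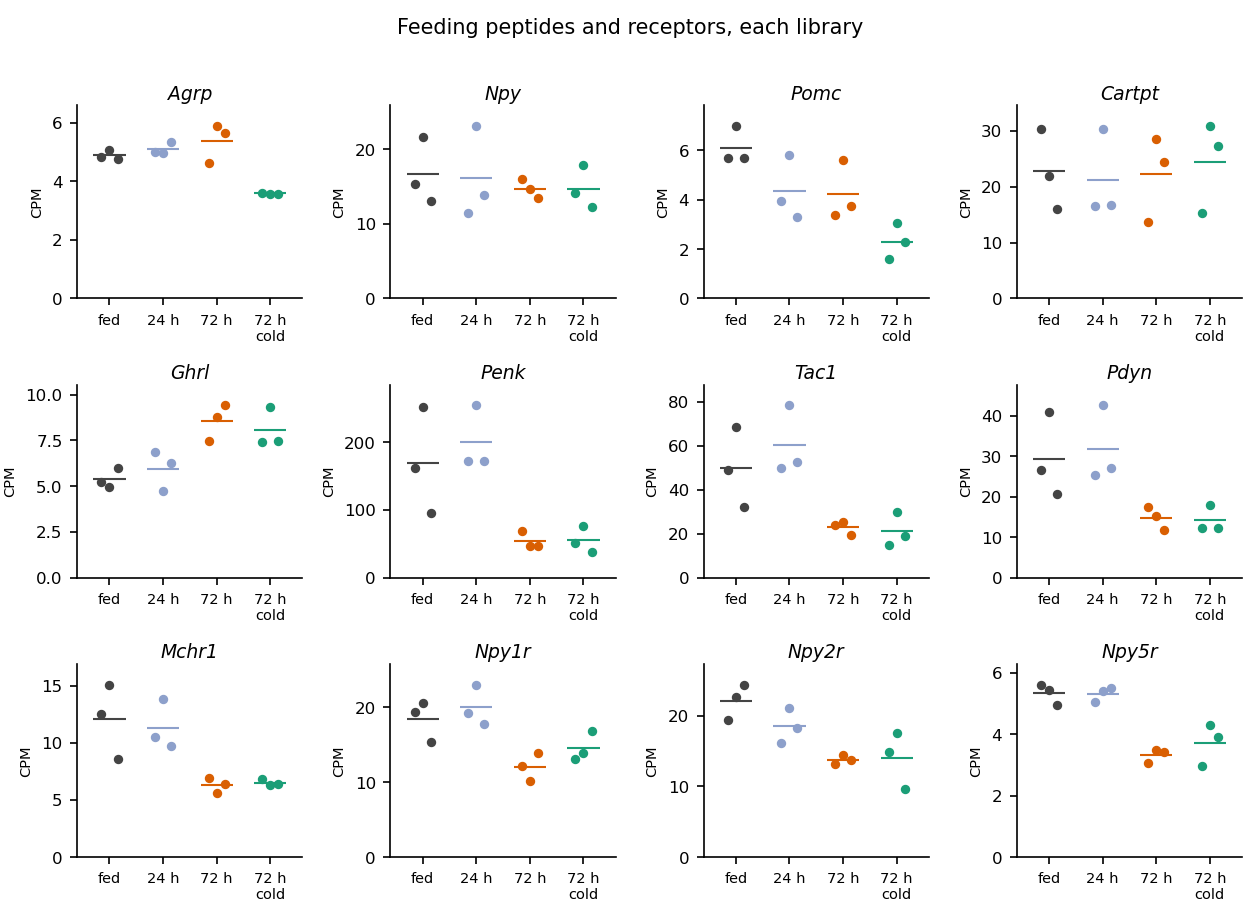
CPM of 12 feeding peptide and receptor genes in each library of the fed, 24 h, 72 h and 72 h cold groups, with a bar at the group mean (n = 3). Agrp, Npy and Cartpt overlap between fed and 72 h, Ghrl is higher at 72 h, and Penk, Tac1, Pdyn and the 4 receptors are lower.

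Of 16 thyroid hormone genes 1 was higher (6.25%, against 7.28% of all genes) and 4 were lower (25%, against 7.78% of all genes), none with a stable call. The count of 4 became 2, 1 and 2 without fed libraries 1 to 3, and none was left without any 1 of the 72 h libraries. Hr, a corepressor gene that thyroid hormone induces in brain, had 37, 40.8 and 25 CPM in fed, 61.5, 61.2 and 63 CPM in 24 h and 64.4, 63 and 71.4 CPM in 72 h libraries (0.95 ± 0.19, edgeR adjusted p = 0.0131), a call lost without 72 h library 3 (edgeR adjusted p = 0.0577). Ttr, the thyroxine carrier transthyretin and a main product of choroid plexus, had 15.2, 85.7 and 180 CPM against 6.2, 1.58 and 1.91 CPM (-4.86 ± 1.10, edgeR adjusted p = 0.0259), and was lost without any 1 of the 72 h libraries (edgeR adjusted p between 0.0514 and 0.0957). Choroid plexus markers, of which Ttr and Enpp2 are themselves members, summed to 368 to 632 CPM in fed and 251 to 272 CPM in 72 h libraries. Most of each sum was Enpp2, at 298, 270 and 351 CPM in fed and 190, 204 and 190 CPM at 72 h. The part of choroid plexus in the fall of Ttr was not tested. Of 25 insulin, IGF and FoxO genes 5 were lower (20%, against 7.78% of all genes) and 20 not called, a count that became 1, 1 and 7 without fed libraries 1 to 3 and 2 without 72 h library 1. None was left without 72 h library 2 or 3. One of the 5 was the binding protein gene Igfbp7, at 19.1, 14.8 and 15.4 CPM against 11.5, 10.4 and 9.93 CPM (-0.63 ± 0.14, edgeR adjusted p = 0.0171), lost without fed library 1 or 72 h library 2 or 3 (edgeR adjusted p up to 0.0665).

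Of 36 fatty acid oxidation and ketone genes 2 were higher (5.56%, against 7.28% of all genes) and 7 lower (19.4%, against 7.78% of all genes, median -0.22), with 1 stable call. The count of 7 became 2, 4 and 11 without fed libraries 1 to 3 and 4, 2 and 1 without 72 h libraries 1 to 3. Vldlr, a lipoprotein receptor gene, fell from 124, 123 and 114 CPM to 81.5, 82.7 and 88 CPM with a stable call (-0.52 ± 0.09, edgeR adjusted p = 0.00956). Oxct1, which starts the use of ketone bodies, had 274, 241 and 257 CPM against 205, 189 and 196 CPM (-0.39 ± 0.09, edgeR adjusted p = 0.0209), lost without fed library 1 or 72 h library 2 or 3 (edgeR adjusted p up to 0.0795). Lpl, the lipoprotein lipase gene, had 10.1, 42.9 and 10.5 CPM against 4.79, 4.04 and 3.5 CPM, with fed library 2 the one rich in liver and muscle transcripts. It kept its call without that library and lost it without 72 h library 2 or 3 (edgeR adjusted p of 0.059 and 0.0758). Of 29 glycolysis and glucose transport genes 3 were lower (10.3%, against the same 7.78%). Among them was Ldha, the lactate dehydrogenase A gene, at 105, 136 and 97.3 CPM against 64.7, 72.3 and 56.2 CPM. It lost its call without fed library 2 or 72 h library 1 or 3 (edgeR adjusted p up to 0.0788). Nuclear oxidative phosphorylation genes had 6 of 38 lower (15.8%, against 7.78% of all genes) and a median of -0.34, a count that became 21 without fed library 3 and fell away without any other 1 library. Autophagy and lysosome genes had 1 of 28 lower (3.57%, against 7.78% of all genes). Camkk2, a kinase upstream of AMPK (chromosome 5, 122731170 to 122779409), fell from 67.3, 70.7 and 62.3 CPM to 44.6, 41.4 and 41.5 CPM (-0.65 ± 0.12, edgeR adjusted p = 0.0099), and Slc7a11, the cystine transporter gene, fell from 129, 121 and 111 CPM to 83.9, 67 and 51.9 CPM (-0.84 ± 0.15, edgeR adjusted p = 0.00956). Slc39a10, a zinc importer gene, fell 1.64-fold. These 3 calls were stable. Cirbp, an RNA-binding protein gene that cooling induces, rose from 39.6, 39.3 and 37.4 CPM to 62.1, 52.4 and 63.4 CPM (0.61 ± 0.09, edgeR adjusted p = 0.00651, stable), and was at 57.4 to 60.3 CPM in the cold group.

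Chaperone genes were called lower in both compartments. Of 26 endoplasmic reticulum chaperone and unfolded protein response genes 13 were lower (50%, against 7.78% of all genes, median -0.41) and 13 not called. Of 27 heat shock and cytosolic chaperone genes 15 were lower (55.6%, against the same 7.78%, median -0.49), 11 were not called and Hsf1, the heat shock factor gene, was higher, from 25, 25.1 and 29.2 CPM to 32.4, 36.8 and 35.5 CPM. Hsf1 is named because it was the exception, after its value was seen. Few of these calls were stable, 2 in the first list and 1 in the second. Counts of lower genes without fed libraries 1 to 3 and 72 h libraries 1 to 3 were 4, 2, 15, 6, 5 and 2 in the first list and 3, 2, 20, 7, 4 and 1 in the second, and Hsf1 lost its call in 5 of the 6 fits.

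The 150 bases before the RefSeq start of 2 called genes of each list are shown because they hold the element through which each pathway is known to act (GRCm38.p6). Capitals mark the endoplasmic reticulum stress element, which is CCAAT, 9 bases of any kind and CCACG on either strand, in Pdia6 (chr12:17266439-17266588, + strand) and Hsp90b1 (chr10:86705445-86705594, - strand), and the heat shock element GAANNTTC in Dnaja1 (chr4:40722318-40722467, + strand) and Hspa1b (chr17:34959239-34959388, - strand).
Pdia6: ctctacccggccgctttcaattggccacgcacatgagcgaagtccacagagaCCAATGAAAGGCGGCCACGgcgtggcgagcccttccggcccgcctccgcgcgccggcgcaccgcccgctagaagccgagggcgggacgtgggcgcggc
Hsp90b1: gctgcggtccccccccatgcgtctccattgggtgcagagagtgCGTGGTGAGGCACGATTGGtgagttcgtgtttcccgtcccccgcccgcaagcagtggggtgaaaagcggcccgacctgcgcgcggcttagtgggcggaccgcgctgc
Dnaja1: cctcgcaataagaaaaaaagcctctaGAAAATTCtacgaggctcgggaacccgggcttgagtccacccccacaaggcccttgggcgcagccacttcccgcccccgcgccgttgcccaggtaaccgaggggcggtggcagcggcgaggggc
Hspa1b: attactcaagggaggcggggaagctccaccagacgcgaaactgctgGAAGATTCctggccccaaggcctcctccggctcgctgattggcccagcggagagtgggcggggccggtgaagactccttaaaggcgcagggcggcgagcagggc
The stress element was found in the 300 base windows of 6 of 12 called endoplasmic reticulum genes (50%), 3 of 11 not called (27.3%) and 0.159% of all genes with a window. The heat shock element was found in 5 of 11 called cytosolic chaperone genes (45.5%), 4 of 10 not called (40%) and 6.13% of all. Members called and not called thus shared these letters.

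Pdia4, a disulphide isomerase gene, had 62.8, 61.9 and 52.3 CPM in fed, 37.5, 48.5 and 39.6 CPM in 24 h and 32.5, 34.6 and 28 CPM in 72 h libraries (72 h minus fed -0.90 ± 0.12, edgeR adjusted p = 0.005). Pdia6, of the same family (chromosome 12, 17266545 to 17284770), had 85.5, 88.1 and 74.8 CPM against 54.5, 55.7 and 47 CPM (-0.66 ± 0.12, edgeR adjusted p = 0.0098). Chordc1, a co-chaperone of Hsp90 (chromosome 9, 18292125 to 18317442), had 115, 115 and 109 CPM against 62.8, 69.5 and 63.4 CPM (-0.79 ± 0.10, edgeR adjusted p = 0.005). These are the 3 stable calls, and fed and fasted libraries are far apart in each. The naming rule required stable calls and separate groups of Chordc1. Hspa5, the main endoplasmic reticulum chaperone BiP, had 283, 297 and 222 CPM against 171, 178 and 141 CPM (-0.71 ± 0.17, edgeR adjusted p = 0.0224), and Hsp90b1, its Hsp90 counterpart (30.9% overlapped), had 214, 223 and 178 CPM against 134, 138 and 113 CPM. In the cytosol Hsph1 fell 1.7-fold, Cryab, a small heat shock protein gene, 1.99-fold and Dnaja1, an Hsp40 gene, 1.5-fold. Hspa1b, an inducible Hsp70 gene that is nearly identical to its neighbour Hspa1a and whose count is uncertain for that reason, had 9.52, 9.83 and 10.6 CPM against 5.28, 6.23 and 4.43 CPM (-0.91 ± 0.27, edgeR adjusted p = 0.0389). The calls of these 6 genes were lost without at least 72 h library 3, with edgeR adjusted p between 0.0533 for Hsph1 and 0.129 for Hspa1b.

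Genes of protein synthesis were lower in part. Of 23 translation factor genes 10 were lower (43.5%, against 7.78% of all genes, median -0.40), of which Eif3a and Eif3c, subunits of the factor that readies the small ribosomal subunit, had stable calls. The count was 2, 2 and 14 without fed libraries 1 to 3 and 5, 3 and 2 without 72 h libraries 1 to 3. Eif3a had 223, 199 and 175 CPM against 135, 134 and 139 CPM (-0.54 ± 0.10, edgeR adjusted p = 0.00929) and Eif3c 178, 161 and 143 CPM against 116, 108 and 108 CPM. Of 44 cytosolic ribosomal protein genes 13 were lower (29.5%, against the same 7.78%, median -0.49), a count of 35 without fed library 3 and at most 2 without any other library. The median span of these genes was 3.47 kb, within the shortest quintile of all genes by span. That quintile summed to 133514, 130437 and 100751 CPM in fed and 87629, 80779 and 79791 CPM in 72 h libraries, and the part of this difference in the falls was not tested.

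Vessel genes were called lower in the lining and in the wall. Of 28 endothelial and blood-brain barrier genes 13 were lower (46.4%, against 7.78% of all genes, median -0.52), 6 with stable calls (against 0.867% of all genes), and the other 15 were not called. Ptprb, an endothelial receptor phosphatase (chromosome 10, 116275523 to 116389535), had 81.6, 80.3 and 65.7 CPM in fed, 50, 43.4 and 49.4 CPM in 24 h and 37.9, 38.4 and 39.5 CPM in 72 h libraries (-0.97 ± 0.10, edgeR adjusted p = 0.00182). Vwf, the von Willebrand factor gene, had 25.7, 23.8 and 18.6 CPM against 12, 12.3 and 10.4 CPM (-0.97 ± 0.13, edgeR adjusted p = 0.005). Emcn, a sialomucin of capillaries and veins, fell 1.88-fold, Ly6c1, a surface antigen, 1.86-fold, Flt1, a receptor of vascular endothelial growth factor, 1.57-fold and Abcb1a, the drug efflux pump of the barrier, 1.49-fold. Of 18 pericyte and smooth muscle genes 7 were lower (38.9%, against the same 7.78%, median -0.54), 3 with stable calls. Myh11, the smooth muscle myosin heavy chain gene (chromosome 16, 14194535 to 14291372), had 24.5, 15.6 and 20.4 CPM in fed, 8.54, 6.68 and 8.06 CPM in 24 h and 4.98, 6.02 and 5.25 CPM in 72 h libraries (-1.90 ± 0.18, edgeR adjusted p = 0.00157). Acta2, smooth muscle actin, had 24.5, 13.7 and 19.8 CPM against 7.07, 6.02 and 3.48 CPM, and Rgs5, a pericyte gene, 112, 103 and 87.8 CPM against 49.8, 49.8 and 44 CPM. Of all genes named here, only Myh11 and Ptprb were still called with 1 surrogate variable (edgeR adjusted p of 0.000653 and 0.0301). The counts of lower genes without fed libraries 1 to 3 and 72 h libraries 1 to 3 were 6, 6, 13, 9, 7 and 6 in the endothelial and 4, 3, 7, 4, 3 and 4 in the wall list.

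Matrix and meningeal genes had 8 of 24 lower (33.3%, against 7.78% of all genes) and 1 higher (4.17%, against 7.28%), with a median of -0.59 and no stable call. Fn1, the fibronectin gene, had 97.4, 122 and 77.3 CPM against 61.2, 58.9 and 40 CPM (-0.89 ± 0.18, edgeR adjusted p = 0.0133), and Col1a1, a collagen gene, 18.3, 30 and 13.4 CPM against 7.99, 6.56 and 4.55 CPM (-1.69 ± 0.38, edgeR adjusted p = 0.0199). Both calls were lost without fed library 2 (edgeR adjusted p of 0.055 and 0.0692) or 72 h library 3 (0.0533 and 0.0812), and the count of 8 became 4 without fed library 1 and 3 without 72 h library 2, with none left without fed library 2 or 72 h library 3. Meningeal fibroblast markers summed to 167, 186 and 130 CPM in fed and to 144, 109 and 38.1 CPM in 72 h libraries, so the groups overlapped, and their part was not tested.

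Genes of glia and of dividing cells fell in part. Of 22 microglia and myeloid genes 7 were lower (31.8%, against 7.78% of all genes, median -0.62), a count of 1, 1 and 12 without fed libraries 1 to 3 and 3, 2 and 1 without 72 h libraries 1 to 3. Fcrls, a microglial surface gene, had 12.6, 13.4 and 9 CPM against 5.33, 4.07 and 4.09 CPM (-1.37 ± 0.23, edgeR adjusted p = 0.00876) with a stable call, whereas Csf1r, the receptor on which microglia depend, fell from 64.5, 64.5 and 50.6 CPM to 42.6, 42 and 36.4 CPM, a call lost without fed library 1 or 2 or 72 h library 3 (edgeR adjusted p up to 0.0708). Of 29 oligodendrocyte and myelin genes 4 were lower (13.8%, against the same 7.78%), 1 with a stable call. Ugt8a, which makes the myelin lipid galactosylceramide, had 121, 95 and 97.3 CPM in fed, 52.3, 63.2 and 53 CPM in 24 h and 53.5, 66.3 and 59.3 CPM in 72 h libraries (72 h minus fed -0.81 ± 0.16, edgeR adjusted p = 0.0112, stable), and Enpp2, the autotaxin gene, fell 1.57-fold, a call lost without 72 h library 3 (edgeR adjusted p = 0.0649). Of 22 astrocyte genes 3 were lower (13.6%, against the same 7.78%), such as the glutamate transporter gene Slc1a2 (1.42-fold, lost in 5 of the 6 fits). In the same list 1 was higher (4.55%, against 7.28% of all genes): Agt, the angiotensinogen gene, at 152, 139 and 120 CPM against 200, 198 and 202 CPM (0.55 ± 0.11, edgeR adjusted p = 0.0133). Its call was lost without fed library 2 or 72 h library 3 (edgeR adjusted p up to 0.0555). Ptn, the growth factor pleiotrophin, fell from 286, 249 and 262 CPM to 164, 138 and 134 CPM (-0.87 ± 0.12, edgeR adjusted p = 0.005, stable).

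Of 16 cell cycle and proliferation genes 6 were lower (37.5%, against 7.78% of all genes, median -0.39), 2 with stable calls. Mki67, the proliferation mark Ki-67 (chromosome 7, 135689784 to 135716361), had 4.21, 3.9 and 3.13 CPM in fed, 1.85, 3.18 and 1.92 CPM in 24 h and 0.704, 0.517 and 0.614 CPM in 72 h libraries, 6.07-fold lower than fed (-2.60 ± 0.34, edgeR adjusted p = 0.005). Ccnd2, the cyclin D2 gene, had 31.1, 37.6 and 31 CPM against 13.6, 15.6 and 15.6 CPM (-1.15 ± 0.15, edgeR adjusted p = 0.005). Cenpf, a centromere gene, fell 3.74-fold, a call lost without fed library 2 or 72 h library 2 or 3 (edgeR adjusted p up to 0.0597). The count of 6 was 3, 2 and 6 without fed libraries 1 to 3 and 3, 2 and 2 without 72 h libraries 1 to 3.

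**Figure D5:**
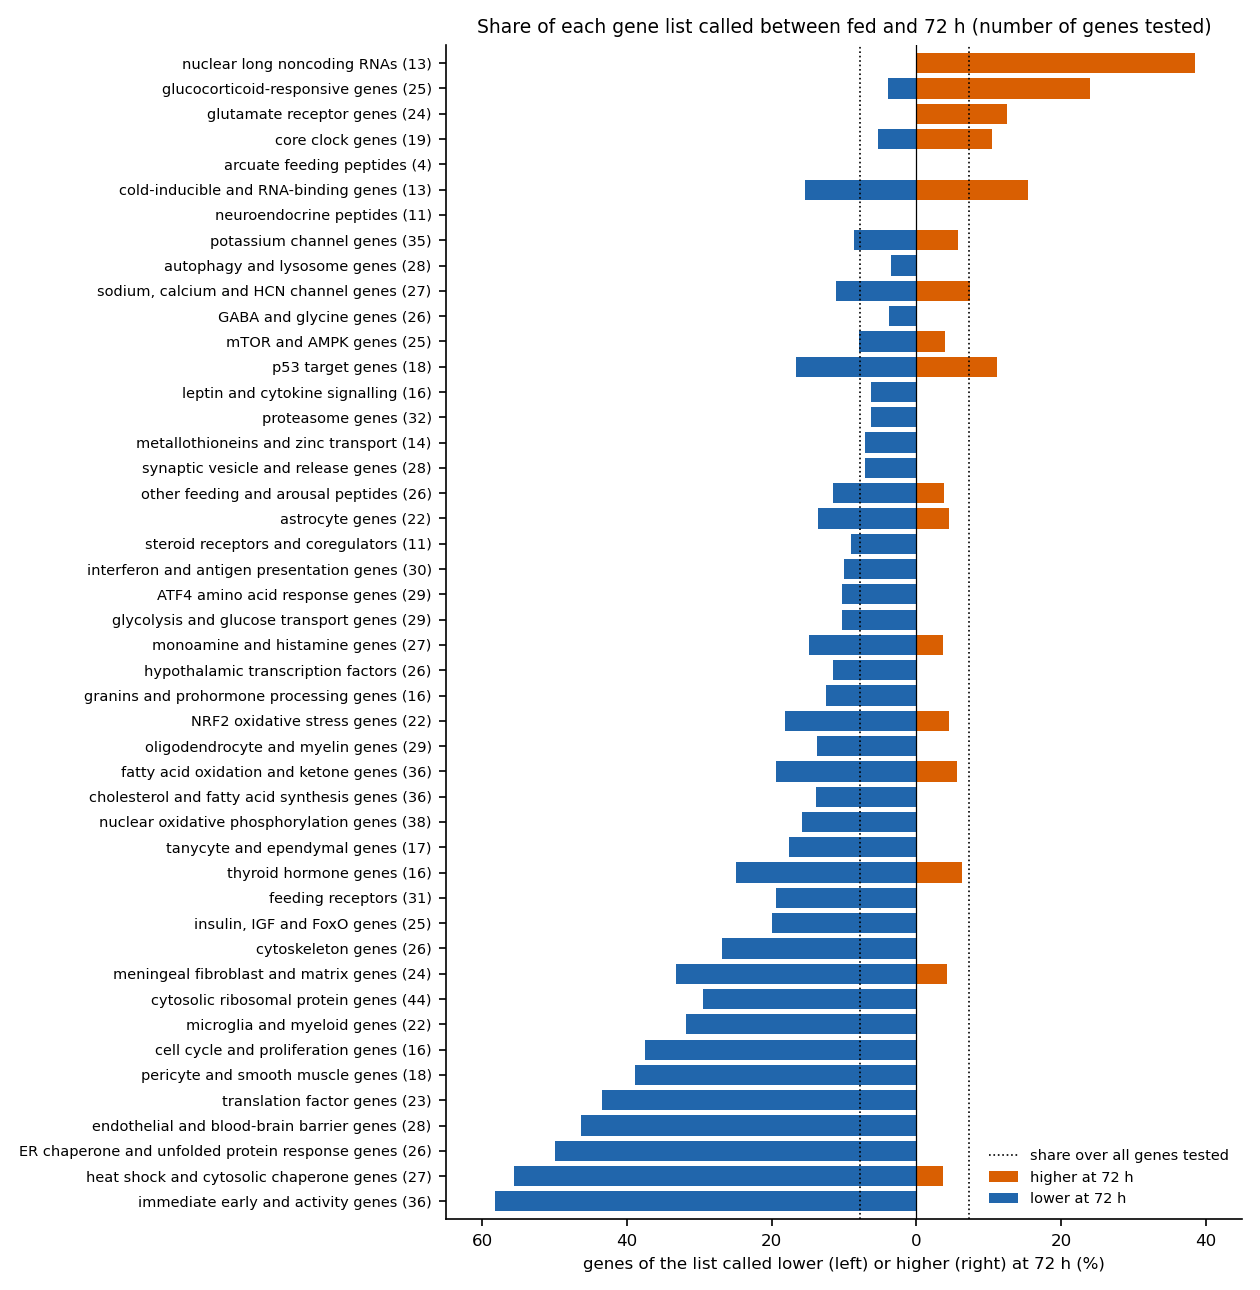
Share of each of 46 gene lists called lower (blue, left) or higher (orange, right) at 72 h, with the number of genes tested in brackets and dotted lines at the shares over all genes (7.78% lower, 7.28% higher). Immediate early genes reach 58.3% lower and heat shock chaperones 55.6%, and glucocorticoid-responsive genes reach 24% higher.

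Long noncoding RNAs rose more often than they fell. Of 3141 tested 354 were higher (11.3%, against 7.28% of all genes) and 44 were lower (1.4%), with a median log2 fold change of 0.38, whereas of 15696 protein-coding genes 6.72% were higher and 9.4% lower. Among the 1414 noncoding genes that no other gene overlaps, 9.05% were higher and 1.7% lower. In a list of 13 nuclear noncoding RNAs 5 were higher (38.5%, against the same 7.28%) and 8 were not called, a count of 6 without fed library 3 and 1 without 72 h library 1, with none left without any 1 of the other 4 libraries. Meg3, an imprinted RNA (chromosome 12, 109541001 to 109571726), had 918, 639 and 1758 CPM in fed and 2664, 3221 and 3395 CPM in 72 h libraries (1.49 ± 0.42, edgeR adjusted p = 0.0394), Snhg11 had 403, 305 and 797 CPM against 1210, 1283 and 1405 CPM, and Miat, which is 86.2% overlapped, had 13, 8.71 and 23.9 CPM against 33, 47 and 46.4 CPM. At 24 h Meg3 was at 2616, 800 and 2401 CPM, so that 24 h library 2 lay in the fed range and the other two near the 72 h range. Neat1, the scaffold of paraspeckles, had 37.2, 40.8 and 42.9 CPM in fed and 68.1, 71.7 and 78 CPM in 72 h libraries (0.85 ± 0.20, edgeR adjusted p = 0.0224). Malat1, the most abundant of these, had 4916, 4375 and 6011 CPM against 5747, 5696 and 5789 CPM and was not called (0.17 ± 0.19, edgeR adjusted p = 0.548). The calls of Meg3, Snhg11, Miat and Neat1 were lost without fed library 1 or 2 or 72 h library 2 or 3, with edgeR adjusted p between 0.0629 and 0.116.

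The change followed the length of the gene. Among genes in the shortest quintile by span (up to 6.07 kb) 2.46% were higher and 8.42% lower, with a median of -0.19, and in the longest quintile (69.3 kb and over) 11% were higher and 5.87% lower, with a median of 0.17. Within protein-coding genes the shares called higher were 2.61% in the shortest and 9.63% in the longest quintile. Libraries of one group also differed along this axis. The longest quintile summed to 408646, 382612 and 490236 CPM in fed and to 448491, 451972 and 480339 CPM in 72 h libraries, so fed library 3 lay above all 3 fasted ones, while fed libraries 1 and 2 lay below them. Noncoding genes summed to 24610, 21441 and 32264 CPM in fed and to 30356, 31743 and 34216 CPM at 72 h, where fed library 3 was within the fasted range. The part of this difference between libraries in the changes of long and noncoding genes was not tested.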

How the data were processed

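Total RNA from mouse hypothalamus was depleted of ribosomal RNA and sequenced with a directional kit, per the labels' protocols. The deposited values are the authors' raw read counts per gene, made with HISAT2 and featureCounts on mm10, with edgeR also named, per the submitters' processing notes, which give no versions. Their strand and overlap settings are not given in the sources used here. From these counts, genes with enough reads were kept (filterByExpr, minimum count 10), scaled by TMM and tested with edgeR 4.0.16 (R 4.3.3) quasi-likelihood tests in 1 fit of all 12 libraries of the count table, with Benjamini-Hochberg adjustment over 20408 genes and a threshold of 0.05. CPM values are scaled by these factors, and fold changes use a prior count of 0.125. The fit was checked on simulated counts with 200 changed genes of a mean count of at least 50. It recovered 30% of 1.5-fold and 94% of 3-fold changes, with 9 false calls. A gene that was not called can thus have changed by 1.5-fold. Alternatives used DESeq2 1.42.0, other scaling and filtering, a replicate block, 1 surrogate variable (sva 3.50.0), the 2 groups alone, and each library left out.

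Named genes were the 15 largest changes in each direction and the 10 smallest adjusted p among protein-coding genes of at least 2 CPM with separate groups and stable calls (ties in order of mean CPM), leaving out liver, muscle, blood and choroid plexus markers. From each gene list up to 6 called and 4 other members could be named, and the text describes part of these. Hsf1 and Hspa1b were chosen after their values were seen. The members and lists were chosen with earlier results of these data known. Positions are from GENCODE M21 (GRCm38), and the overlap given for a gene is the share of its span that other genes cover. Promoters are RefSeq's.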

Additional observations from a re-analysis of the deposited data

Results flagged for a closer look

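The 38 genes below are those named in the text whose change from fed differed between the fasted groups. The criterion was edgeR's test of the 72 h against the 24 h libraries at an adjusted p below 0.05. Over all genes tested that test called 333, or 1.63%. Of these 286 were also called between fed and 72 h. Values in brackets are log2 differences, 72 h minus 24 h. Both changes share the fed libraries, so the test is of the 24 h and 72 h libraries alone.

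Activity genes were lower at 72 h than at 24 h, namely Fos (-2.03), Junb (-1.82), Fosl2 (-1.3), Egr1 (-1.9), Egr3 (-2.91), Egr4 (-2.74), Arc (-1.57) and Homer1 (-0.97). So were other genes with large falls from fed, and the peptide genes Penk and Tac1, with Ddn (-2.37), Kcnj4 (-2.39), Lrrc10b (-2.76), Ankrd33b (-2.34), Itpka (-2.29), Epyc (-2.61), Kcnv1 (-1.92), Rin1 (-2.24), Krt9 (-2.21), Meis2 (-1.38), Ano3 (-1.39), Penk (-1.87) and Tac1 (-1.39). Summed striatal markers were between 1196 and 1403 CPM at 24 h and between 504 and 595 CPM at 72 h, with Penk and Tac1 among the 12 markers summed, and their part in these differences was not tested.

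Among the other genes, Gucy1b1 (-0.7), Lrrk2 (-0.9), Jcad (-1.02), Npy1r (-0.72), Camkk2 (-0.62), Chordc1 (-0.63), Kcna4 (-0.63), Ly6c1 (-0.71), Mki67 (-1.91), Ccnd2 (-0.93) and Fkbp5 (-0.48) were lower at 72 h than at 24 h. Of these Fkbp5 lay below its 24 h libraries while still above its fed ones. Higher at 72 h than at 24 h were Atp1a4 (2.55), Cyp4f18 (1.68), Slc26a8 (1.0), Vmn2r1 (1.03), Grin2d (0.58) and Neat1 (0.88). Counts of genes called between 24 h and 72 h depended on single libraries, as given among the results on processing.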

How the results depend on the processing

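Of the 3072 calls between fed and 72 h, 1 surrogate variable left 5 (0 higher, 5 lower) and DESeq2 made 4707 (2498 lower). Leaving out 1 library gave 434 to 5446 calls, 202 to 2856 higher and 223 to 2590 lower, the highest without fed library 3 and the lowest without 72 h library 3 (without fed library 2 for higher genes). Between 24 h and 72 h the 333 calls became 35 with the surrogate variable, 1776 with DESeq2 and 0 to 328 without 1 library. Between the 72 h groups DESeq2 called 57 genes and the fits without 1 library called 0 to 5. Calls between fed and 72 h stayed within 1.5 times of the main count with RLE scaling (3122), without a filter (2486), without tissue markers in the scaling (3079) and with the 2 groups alone (3909). The share of calls that were higher was 48.3%, 35.4% without fed library 1 and 0% with the surrogate variable.

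Whether replicate numbers pair the samples cannot be decided from 3 libraries per group. Deviations of same-numbered libraries from their group means correlated at 0, 0.01 and 0.16, the last being the highest of all pairs. Fed library 2 correlated best with 72 h library 1 (0.11). With the replicate block 2823 genes were called. Of 103 called genes named in the text, 103 kept their call with DESeq2, 101 with the block, 96 without a filter, 100 with the 2 groups alone, 2 with the surrogate variable and 68 in every fit that left out 1 fed or 72 h library. The 68 are no measure of all calls, since the naming rule required stable calls of the largest changes and smallest adjusted p. Among all 3072 calls 328 were stable. The sign changed in genes that were not called: Sgk1 (-0.08 with the surrogate variable, -0.09 without fed library 2), Npy (0.59 and 0.05 in the same fits), Cartpt (0.43 with the surrogate variable, 0.20 without 72 h library 1, 0.22 without fed library 1) and Malat1 (-0.41 with the surrogate variable). Over the fits without 1 library these values ran from -0.09 to 0.37 for Sgk1, from -0.34 to 0.05 for Npy and from -0.27 to 0.22 for Cartpt. The cause was not tested. Fed and 72 h libraries held at least 27111216 counts, and genes of a few CPM rest on the fewest.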
